A study of Homo sapiens with 14 samples.

Results

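The 10 genes described here encode the core of nucleotide excision repair, the pathway that cuts bulky lesions out of DNA: XPC, DDB1, DDB2, ERCC6, ERCC2, ERCC3, XPA, ERCC5, ERCC1 and ERCC4. They were listed by name for their role in the pathway, with earlier results of these data known, and each was matched to 1 Ensembl identifier among the 62757 genes counted. Their messenger RNA was described in 14 RNA-seq libraries of human ovarian cancer cell lines, in 7 groups of 2. The OVCAR3 groups were sh1 and sh2, OVCAR3 cells selected for cisplatin resistance that also carry a short hairpin RNA against ADAR1; shNC, the same kind of cells with a control hairpin; OVCAR3-DDP, the resistant cells with no hairpin; and parental OVCAR3, labelled WT. The A2780 groups were A2780-DDP, the cisplatin-resistant derivative, and parental A2780. DDP abbreviates cisplatin, a platinum drug that crosslinks DNA bases, and every hairpin group shares the cisplatin selection. The labels do not say whether a resistant line was 1 clone or a population, whether cells were in drug when collected, or whether the replicates of a group came from separate cultures. The p-values therefore cover the spread between these libraries alone, which may be technical.

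In global genome repair the XPC complex senses the distorted helix, helped for ultraviolet photoproducts by the DDB1 and DDB2 complex, while in transcribed strands ERCC6 (the CSB protein) acts at stalled RNA polymerase. Both routes bring in TFIIH, whose helicases ERCC2 (XPD) and ERCC3 (XPB) open the DNA, and XPA, which helps to hold the opened complex. ERCC5 (XPG) then cuts on the 3′ side and the ERCC1–ERCC4 pair (ERCC4 is XPF) on the 5′ side, after which polymerases and ligases fill the gap. The pathway removes platinum adducts between neighbouring bases of 1 strand, and ERCC1 is much studied in platinum-treated ovarian cancer.

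Counts assigned to genes ran from 20428538 to 23746370 in the 6 hairpin libraries and from 31195174 to 49115255 in the other 8. Reads with more than 1 alignment were 4.64% to 4.99% of reads in hairpin libraries and 2.36% to 3.22% in the others. Mitochondrial genes took 1.26% to 1.53% of assigned counts in hairpin libraries and 2.74% to 4.25% in the others. The unit of level is CPM, a count relative to its library's total, with totals adjusted by TMM, a correction for differences in RNA composition. The 10 ovarian and epithelial marker genes together stood at 494 to 532 CPM in libraries labelled OVCAR3-DDP, against 3767 to 4207 CPM in parental OVCAR3. Their sum was 5181 to 5606 CPM in shNC, 3850 to 4296 CPM in sh1 and 4149 to 4168 CPM in sh2, although these too are labelled OVCAR3-DDP. In A2780-DDP it was 264 to 297 CPM and in parental A2780 183 to 195 CPM, with MUC16 at 0 in both A2780 groups. Of the 9 markers tested, 8 were lower in libraries labelled OVCAR3-DDP than in parental OVCAR3, with 35.2% of all genes called lower. WT1 went the other way and was higher (log2 12.29, edgeR adjusted p = 3.55e-09), with 0 counts in parental OVCAR3 and in shNC. The libraries labelled OVCAR3-DDP thus stand apart from the hairpin libraries said to come from the same cells. For results that rest on them, the shNC libraries are also set against the same parental cells, in part further below. Leukocyte marker sums were at most 4.05 CPM and endothelial sums at most 2.81 CPM in all 14 libraries, with CD3E at 0 in every group. Fibroblast marker sums were 95.3 to 101 CPM in libraries labelled OVCAR3-DDP and 65.2 to 70.4 CPM in parental OVCAR3. They were 119.3 to 119.4 CPM in shNC, 126.5 to 148 CPM in sh1 and 106.1 to 106.6 CPM in sh2. In A2780-DDP they were 31.86 to 33.76 CPM and in parental A2780 82.85 to 84.99 CPM. The markers did not move alike in libraries labelled OVCAR3-DDP against parental OVCAR3, with COL1A1 higher (log2 0.60) and DCN (log2 −4.01) and PDGFRB (log2 −1.87) lower. ADAR, the gene targeted by the hairpins, had 308 and 262 CPM in sh1 and 119.8 and 118 CPM in sh2, against 500.0 and 454 CPM in shNC.

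**Figure D1:**
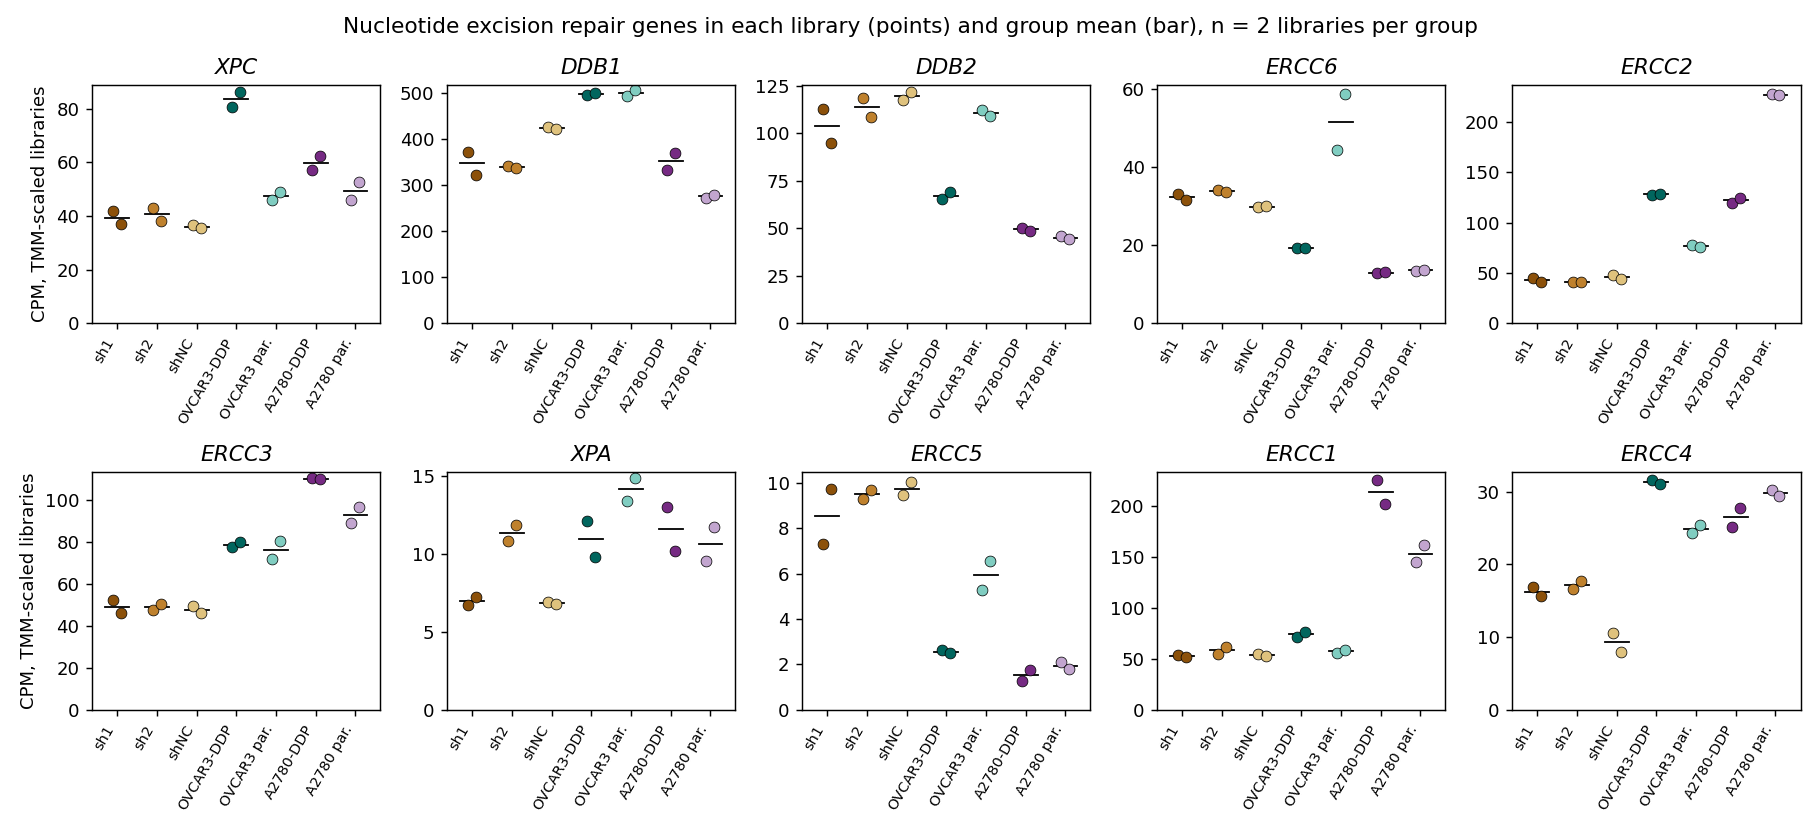
Level of each of the 10 genes in CPM on TMM-scaled library totals (vertical axes start at 0) in each library (points) with the mean of each group (bar), 2 libraries per group; par. is parental. ERCC2 is highest in parental A2780 and ERCC1 in A2780-DDP, while DDB2, ERCC6 and ERCC5 are lower in libraries labelled OVCAR3-DDP than in the other OVCAR3 groups.

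The first comparison asked which repair genes differ between the cisplatin-selected and the parental OVCAR3 cells. In the libraries labelled OVCAR3-DDP, 4 of the 10 genes were higher and 4 lower than in parental OVCAR3. At the same threshold, an edgeR adjusted p under 0.05, 68.5% of all 23031 genes tested were called, 33.4% higher and 35.2% lower, so the share of repair genes called was near that background. The genes that rose were XPC, ERCC2, ERCC1 and ERCC4, and those that fell were ERCC6, ERCC5, DDB2 and XPA. The median log2 fold change of the 10 genes was −0.06, against −0.03 over all genes tested. In shNC against the same parental libraries, XPC (log2 −0.40), ERCC2 (log2 −0.74) and ERCC4 (log2 −1.42) were lower and ERCC5 (log2 0.71) was higher. ERCC6 and XPA were lower in shNC as well, and DDB2 and ERCC1 were not called there. In bulk RNA a lower level can come from fewer cells of a kind or from less RNA per cell, and these cannot be told apart.

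Among the genes of lesion recognition, XPC (ENSG00000154767.15, chromosome 3, 14145147 to 14178783, minus strand; positions are GRCh38 in GENCODE 29, and all 10 genes are protein coding) had 80.9 and 86.4 CPM in libraries labelled OVCAR3-DDP and 45.9 and 49.00 CPM in parental OVCAR3. The groups did not overlap, and XPC was higher (log2 0.74, SE 0.10, edgeR adjusted p = 2.28e-05). DDB2 (ENSG00000134574.12, chromosome 11, 47214465 to 47239240, plus strand), the subunit of the damage-binding complex that contacts the photoproduct, had 65.2 and 69.2 CPM in libraries labelled OVCAR3-DDP and 112 and 109 CPM in parental OVCAR3. All the OVCAR3-DDP values lay below the parental ones (log2 −0.80, SE 0.09, edgeR adjusted p = 2.93e-06). DDB1 (ENSG00000167986.15, chromosome 11, 61299451 to 61342596, minus strand), its partner and the adaptor of the CUL4 ubiquitin ligases, had 495 and 499.6 CPM in libraries labelled OVCAR3-DDP and 493 and 506 CPM in parental OVCAR3. These ranges overlapped and no difference was called (log2 −0.08, 95% interval −0.27 to 0.11, edgeR adjusted p = 0.416). ERCC6 (ENSG00000225830.16, chromosome 10, 49455368 to 49539538, minus strand), the remodelling ATPase of transcription-coupled repair, had 19.3 and 19.3 CPM in libraries labelled OVCAR3-DDP and 44.3 and 58.7 CPM in parental OVCAR3. It fell the most of the 10 genes (log2 −1.49, SE 0.13, edgeR adjusted p = 2.98e-07), without overlap between the groups.

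The TFIIH helicases did not move alike. ERCC2 (ENSG00000104884.17, chromosome 19, 45349837 to 45370918, minus strand) had 128 and 128 CPM in libraries labelled OVCAR3-DDP and 77.6 and 75.9 CPM in parental OVCAR3, 2 groups that did not overlap (log2 0.66, SE 0.08, edgeR adjusted p = 1.17e-05). ERCC3 (ENSG00000163161.14, chromosome 2, 127257290 to 127294176, minus strand) had 77.5 and 79.8 CPM in libraries labelled OVCAR3-DDP and 71.7 and 80.3 CPM in parental OVCAR3, with overlap and no call (log2 −0.03, 95% interval −0.23 to 0.17, edgeR adjusted p = 0.807). XPA (ENSG00000136936.11, chromosome 9, 97674909 to 97697357, minus strand), the scaffold that meets TFIIH and the single-strand binding protein RPA, had 12.1 and 9.83 CPM in libraries labelled OVCAR3-DDP and 13.4 and 14.9 CPM in parental OVCAR3. It was called lower (log2 −0.45, SE 0.17, edgeR adjusted p = 0.0284), but that call was lost in 9 of 15 alternative settings, among them leaving out the second OVCAR3-DDP library, with adjusted p up to 0.238, or the second parental library.

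Of the nucleases, ERCC5 (ENSG00000134899.24, chromosome 13, 102807146 to 102876001, plus strand) had 2.63 and 2.50 CPM in libraries labelled OVCAR3-DDP and 5.29 and 6.56 CPM in parental OVCAR3. It was lower without overlap (log2 −1.29, SE 0.25, edgeR adjusted p = 0.000458). Its level is uncertain, because 63.2% of its exon length is shared on the same strand with the readthrough gene BIVM-ERCC5, which had 0 counts in all 14 libraries, and ERCC5 itself had counts as low as 45 in a library. ERCC1 (ENSG00000012061.16, chromosome 19, 45407333 to 45478828, minus strand) had 72.1 and 76.4 CPM in libraries labelled OVCAR3-DDP and 55.6 and 59.3 CPM in parental OVCAR3, a small rise (log2 0.29, SE 0.10, edgeR adjusted p = 0.0153). Without the second OVCAR3-DDP library the ERCC1 call was lost (edgeR adjusted p = 0.117). ERCC4 (ENSG00000175595.16, chromosome 16, 13920157 to 13952345, plus strand) had 31.6 and 30.98 CPM in libraries labelled OVCAR3-DDP and 24.3 and 25.4 CPM in parental OVCAR3 (log2 0.26, SE 0.10, edgeR adjusted p = 0.0411). Its call was lost in 6 of 15 settings, including without any 1 of the 4 libraries compared, with adjusted p up to 0.154.

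The second comparison asked the same of A2780. In A2780-DDP 2 of the 10 genes were higher and 1 lower than in parental A2780, against 35.3% of all genes called, 18% higher and 17.3% lower. ERCC1 and DDB1 rose and ERCC2 fell. ERCC1 had 225 and 202 CPM in A2780-DDP and 145 and 162 CPM in parental A2780, with no overlap (log2 0.45, SE 0.09, edgeR adjusted p = 0.00221). DDB1 had 333 and 370.5 CPM in A2780-DDP and 272 and 279 CPM in parental A2780, also without overlap (log2 0.33, SE 0.09, edgeR adjusted p = 0.0101). Leaving out the first parental A2780 library took away the DDB1 call (edgeR adjusted p = 0.0609). ERCC2 had 119.7 and 125 CPM in A2780-DDP and 228 and 227 CPM in parental A2780, and both selected libraries lay far below both parental ones (log2 −0.92, SE 0.08, edgeR adjusted p = 2.21e-06).

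The remaining 7 genes were not called in A2780. XPC had 57.2 and 62.4 CPM in A2780-DDP and 45.9 and 52.7 CPM in parental A2780 (log2 0.25, 95% interval 0.03 to 0.48, edgeR adjusted p = 0.0707). In 4 of 15 settings XPC was called higher. ERCC3 had 110.1 and 109.7 CPM in A2780-DDP and 88.8 and 96.6 CPM in parental A2780 (log2 0.22, 95% interval 0.02 to 0.42, edgeR adjusted p = 0.0824). ERCC4 had 25.2 and 27.8 CPM in A2780-DDP and 30.2 and 29.4 CPM in parental A2780 (log2 −0.19, 95% interval −0.42 to 0.03, edgeR adjusted p = 0.17). Neither difference passed the threshold, and the ERCC4 interval includes 0. Of these 7 genes only XPA had values that overlapped between the A2780 groups. Lack of overlap between groups of 2 libraries carries no test, and its share over all genes was not computed. DDB2 had 50.3 and 48.7 CPM in A2780-DDP and 45.7 and 44.4 CPM in parental A2780 (log2 0.11, 95% interval −0.08 to 0.30, edgeR adjusted p = 0.379). ERCC6 had 12.9 and 12.99 CPM in A2780-DDP and 13.5 and 13.7 CPM in parental A2780 (log2 −0.10, 95% interval −0.39 to 0.20, edgeR adjusted p = 0.643). Both intervals include 0, as do those of XPA (log2 0.10, 95% interval −0.26 to 0.47, edgeR adjusted p = 0.697) and ERCC5 (log2 −0.39, 95% interval −0.99 to 0.22, edgeR adjusted p = 0.314). XPA had 12.97 and 10.2 CPM in A2780-DDP and 9.53 and 11.7 CPM in parental A2780, while ERCC5 had 1.27 and 1.77 CPM in A2780-DDP and 2.10 and 1.80 CPM in parental A2780.

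**Figure D2:**
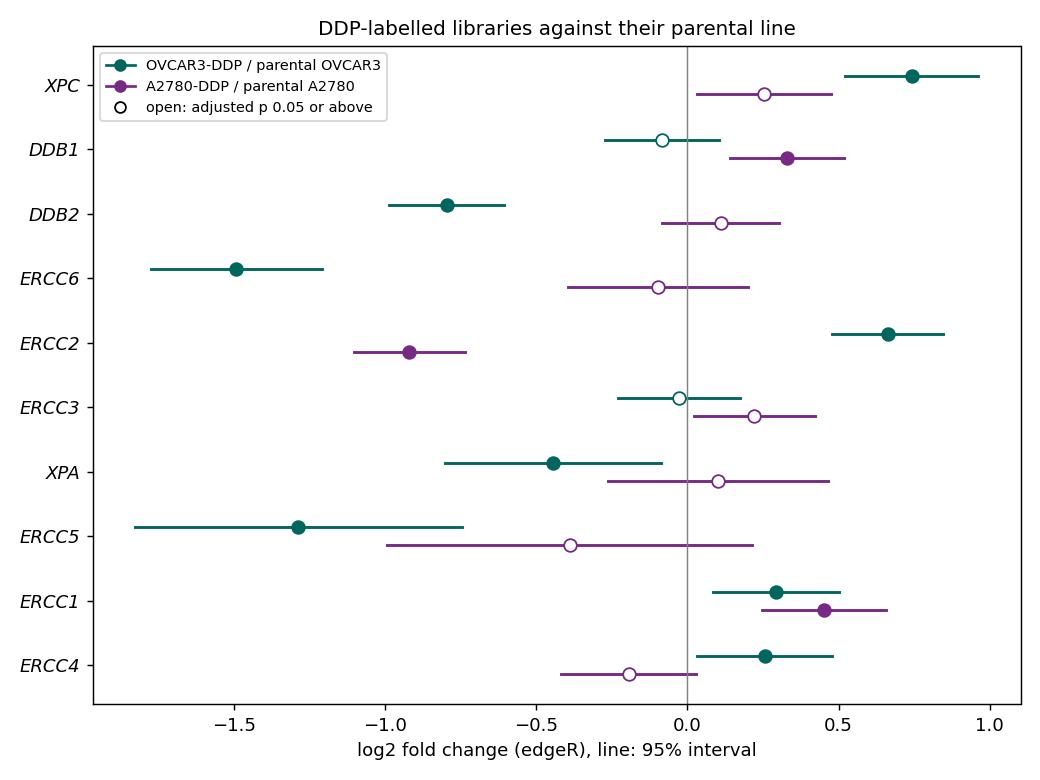
Log2 fold change of each gene (horizontal axis, points) with its 95% interval (lines) in libraries labelled OVCAR3-DDP over parental OVCAR3 (green) and in A2780-DDP over parental A2780 (purple); open points have an edgeR adjusted p of 0.05 or above. ERCC2 lies at 0.66 in OVCAR3 and −0.92 in A2780, and in OVCAR3 ERCC6 lies at −1.49, ERCC5 at −1.29 and DDB2 at −0.80.

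The change in the OVCAR3 libraries was then compared with that in A2780 directly, as the difference of the 2 log2 fold changes. It was called for 6 of the 10 genes, 3 in each direction, against 53.8% of all genes, 26.9% in each direction. The largest difference was for ERCC2, higher in libraries labelled OVCAR3-DDP and lower in A2780-DDP than in their parental lines (OVCAR3 change minus A2780 change log2 1.58, SE 0.12, edgeR adjusted p = 1.38e-07). XPC (log2 0.49, edgeR adjusted p = 0.0115) and ERCC4 (log2 0.45, edgeR adjusted p = 0.0191) also changed more in the positive direction in OVCAR3. ERCC6 (log2 −1.40, edgeR adjusted p = 3.36e-05), DDB2 (log2 −0.91, edgeR adjusted p = 4.05e-05) and DDB1 (log2 −0.41, edgeR adjusted p = 0.0125) changed more in the negative direction there. For ERCC1, the gene that rose in both DDP comparisons, the difference was not called (log2 −0.16, 95% interval −0.45 to 0.13, edgeR adjusted p = 0.354). Without the second OVCAR3-DDP library 3 genes were called instead of 6, and XPC, ERCC4 and DDB1 lost their calls. Leaving out other single libraries ended the call of XPC (second parental A2780), of ERCC4 (first OVCAR3-DDP or first parental A2780) and of DDB1 (first OVCAR3-DDP or either parental A2780), with edgeR adjusted p up to 0.0639, 0.0700 and 0.136 over all settings. The direction in OVCAR3 was not that of the other resistant libraries for all genes: in shNC against parental OVCAR3, ERCC2 (log2 −0.74, edgeR adjusted p = 1.73e-06) was lower, the same direction as in A2780-DDP, and XPC (log2 −0.40, edgeR adjusted p = 0.00707) and ERCC4 (log2 −1.42, edgeR adjusted p = 1.55e-08) were lower too. ERCC6 (log2 −0.79, edgeR adjusted p = 1.97e-05) and DDB1 (log2 −0.24, edgeR adjusted p = 0.0466) were lower in shNC, and DDB2 was not called (log2 0.11, edgeR adjusted p = 0.41). The difference of these shNC changes from those in A2780-DDP was not tested.

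ERCC1 and ERCC2 lie on chromosome 19, on the same strand and 36414 bases apart in GENCODE 29. Both rose in libraries labelled OVCAR3-DDP, while in A2780-DDP ERCC1 rose and ERCC2 fell, and in shNC against parental OVCAR3 ERCC2 fell (−0.74 on the log2 scale) and ERCC1 was not called (−0.09). Their promoters are printed because these neighbours parted in A2780. The 250 bases before the RefSeq start of each gene (GRCh38.p14; ERCC2 chr19:45370574-45370823, minus strand; ERCC1, the last of its 3 listed starts, chr19:45423529-45423778, minus strand) read 5′ to 3′ as follows, with CCAAT boxes (CCAAT, or ATTGG on the other strand) and GC boxes (GGGCGG, or CCGCCC) in capitals.
ERCC2: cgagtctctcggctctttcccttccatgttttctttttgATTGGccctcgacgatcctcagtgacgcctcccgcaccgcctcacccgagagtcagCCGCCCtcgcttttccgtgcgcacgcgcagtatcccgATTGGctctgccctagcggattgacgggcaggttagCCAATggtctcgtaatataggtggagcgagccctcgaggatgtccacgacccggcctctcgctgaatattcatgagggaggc
ERCC1: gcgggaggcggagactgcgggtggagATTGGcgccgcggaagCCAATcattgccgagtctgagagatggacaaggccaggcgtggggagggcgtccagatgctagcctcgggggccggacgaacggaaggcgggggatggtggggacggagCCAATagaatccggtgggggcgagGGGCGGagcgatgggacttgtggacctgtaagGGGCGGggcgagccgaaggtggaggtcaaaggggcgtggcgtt
Each window holds 3 CCAAT boxes, with 1 GC box for ERCC2 and 2 for ERCC1. The windows before the other listed starts of ERCC1, not printed, hold neither box. In windows that reach 50 bases past the start, a CCAAT box on either strand was found in 34.61% of 35116 RefSeq promoters and in 3 of the 14 promoters of the 10 genes, and a GC box in 44.95% and in 9 of 14. The E box (CACGTG) was found in 7.26% of promoters and in 1 of the 14, that of ERCC6. The ETS motif (CCGGAAG) was in 10.26% and in 4 of the 14, those of ERCC1, ERCC3, ERCC4 and ERCC5. The letters TATAAA and TGANTCA occurred in 11.53% and 7.71% of promoters and in 0 of the 14. These motifs share no base with one another in the printed windows, and a match is a description of letters only.

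The third comparison asked what differed on knockdown of ADAR1 in the cisplatin-selected OVCAR3 cells. ADAR fell with both hairpins, by more with sh2 (log2 −1.99, edgeR adjusted p = 2.07e-09) than with sh1 (log2 −0.71, edgeR adjusted p = 0.00122), and the hairpins differed from each other (log2 −1.27, edgeR adjusted p = 5.86e-06). Of the 10 repair genes edgeR called 1 with sh1, which was higher, with 3.81% of all 19044 genes called, 1.96% higher and 1.85% lower. With sh2 it called 2, both higher, against 14.3% of all genes, 7.23% higher and 7.04% lower. At an unadjusted p under 0.05 the counts were 2 and 3, limma-voom called 1 and 2, and DESeq2 1 and 3. The share of all genes at an unadjusted p under 0.05 was not computed for the hairpin comparisons. ERCC4 rose with each hairpin and XPA with sh2.

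ERCC4 had 16.9 and 15.6 CPM in sh1 and 16.6 and 17.6 CPM in sh2, against 10.6 and 7.96 CPM in shNC. All 4 knockdown libraries lay above both controls, and the change was alike in size with sh1 (log2 0.83, SE 0.17, edgeR adjusted p = 0.0107) and with sh2 (log2 0.90, SE 0.17, edgeR adjusted p = 0.00243). Both knockdown levels remained below the 24.3 and 25.4 CPM of parental OVCAR3. The calls rest on the lower of the control libraries: without shNC replicate 2 the log2 fold changes were 0.64 and 0.71 with adjusted p of 0.266 and 0.0775 by edgeR. An antisense gene without a symbol (ENSG00000262732.1) overlaps 25.7% of the exon length of ERCC4, and its counts were 94 and 86 in sh1 and 50 and 79 in sh2, against 43 and 47 in shNC. Whether the counting used strand is not given in the sources used here, so reads of the 2 genes cannot be told apart.

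XPA had 10.8 and 11.9 CPM in sh2 and 6.73 and 7.23 CPM in sh1, against 6.94 and 6.78 CPM in shNC. The sh2 libraries stood above all others of the set (log2 0.75, SE 0.18, edgeR adjusted p = 0.0111), while sh1 overlapped the control (log2 0.05, 95% interval −0.34 to 0.45, edgeR adjusted p = 0.911). Leaving out any 1 of the shNC or sh2 libraries ended the sh2 call, with edgeR adjusted p from 0.0748 to 0.107. The direct difference of sh2 from sh1 was not called (log2 0.69, 95% interval 0.31 to 1.07, edgeR adjusted p = 0.055). In that comparison none of the 10 genes passed in edgeR, 1 had an unadjusted p under 0.05, DESeq2 called 1 and limma-voom 0, and 1.92% of all genes were called, 0.667% higher and 1.25% lower.

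DDB1 had 373 and 322 CPM in sh1 and 341 and 337 CPM in sh2, against 427 and 421 CPM in shNC. Every knockdown library was below both controls, but neither hairpin alone passed (log2 −0.26, 95% interval −0.48 to −0.04, edgeR adjusted p = 0.173 for sh1 and log2 −0.30, 95% interval −0.52 to −0.08, edgeR adjusted p = 0.0606 for sh2). Other settings called DDB1 lower with sh2 in 5 of 14 cases and with sh1 in 1 of 14. The mean of the hairpins against shNC called DDB1 lower (log2 −0.28, SE 0.09, edgeR adjusted p = 0.0475) and ERCC4 higher (log2 0.87, SE 0.15, edgeR adjusted p = 0.0018), 2 of 10 genes against 11.9% of all genes, 5.94% higher and 5.98% lower. The DDB1 call was lost in 6 of 15 settings, among them leaving out any 1 shNC or sh2 library, with edgeR adjusted p up to 0.320, and the ERCC4 call without shNC replicate 2 (edgeR adjusted p = 0.108). The other 7 genes were called with neither hairpin. XPC had 41.9 and 36.9 CPM in sh1 and 42.97 and 38.3 CPM in sh2, against 36.5 and 35.6 CPM in shNC, with all knockdown values above the controls (log2 0.18, 95% interval −0.07 to 0.42, edgeR adjusted p = 0.35 for the mean). ERCC6 had 33.00 and 31.4 CPM in sh1 and 33.99 and 33.5 CPM in sh2, against 29.6 and 30.1 CPM in shNC, again without overlap (log2 0.17, 95% interval −0.07 to 0.41, edgeR adjusted p = 0.376). Such separation of knockdown from control libraries carries no test, and its share over all genes was not computed. ERCC2 (log2 −0.11, 95% interval −0.34 to 0.12, edgeR adjusted p = 0.567), ERCC3 (log2 0.06, 95% interval −0.17 to 0.30, edgeR adjusted p = 0.764) and ERCC1 (log2 0.08, 95% interval −0.15 to 0.31, edgeR adjusted p = 0.695) had intervals that include 0. So did DDB2 (log2 −0.12, 95% interval −0.33 to 0.10, edgeR adjusted p = 0.507) and ERCC5 (log2 −0.09, 95% interval −0.43 to 0.25, edgeR adjusted p = 0.765).

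**Figure D3:**
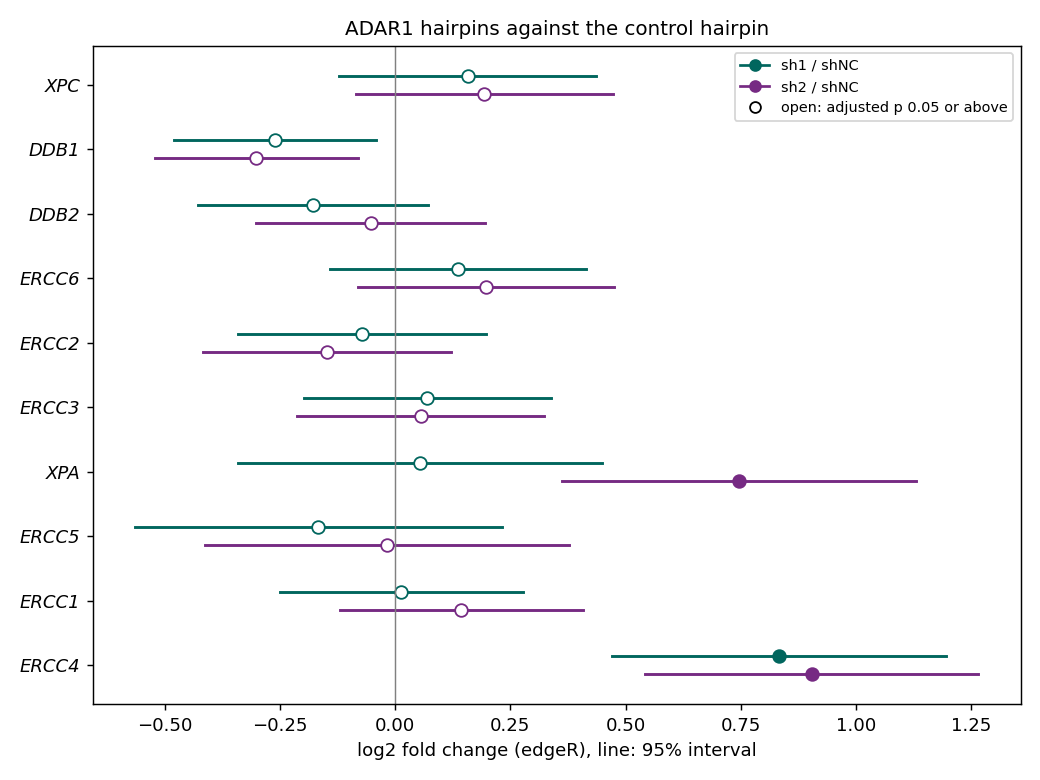
Log2 fold change of each gene (horizontal axis, points) with its 95% interval (lines) in sh1 over shNC (green) and in sh2 over shNC (purple); open points have an edgeR adjusted p of 0.05 or above. ERCC4 lies at 0.83 with sh1 and 0.90 with sh2, and XPA at 0.05 with sh1 and 0.75 with sh2.

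The shNC libraries offered a second view of the resistant OVCAR3 cells that does not use the libraries labelled OVCAR3-DDP. Against parental OVCAR3, shNC had 1 of the 10 genes higher and 7 lower, with 51.5% of all genes called, 25.1% higher and 26.5% lower. ERCC5 rose, with 9.44 and 10.04 CPM in shNC and 5.29 and 6.56 CPM in parental OVCAR3 (log2 0.71, SE 0.21, edgeR adjusted p = 0.00754). ERCC4 fell the most, with 10.6 and 7.96 CPM in shNC and 24.3 and 25.4 CPM in parental OVCAR3 (log2 −1.42, SE 0.15, edgeR adjusted p = 1.55e-08). The antisense gene that overlaps ERCC4 had 43 and 47 counts in shNC and 201 and 316 in the deeper parental OVCAR3 libraries. Its part in the fall of ERCC4 was not tested. XPA (log2 −1.04, edgeR adjusted p = 3.99e-05), ERCC6 (log2 −0.79, edgeR adjusted p = 1.97e-05), ERCC2 (log2 −0.74, edgeR adjusted p = 1.73e-06), ERCC3 (log2 −0.67, edgeR adjusted p = 1.79e-05) and XPC (log2 −0.40, edgeR adjusted p = 0.00707) were lower as well. DDB1 was called lower (log2 −0.24, edgeR adjusted p = 0.0466), a call lost in 11 of 13 settings, among them leaving out any 1 library compared. The ERCC5 call was lost without the first parental OVCAR3 library or shNC replicate 2 (edgeR adjusted p up to 0.0604), and the XPC call without shNC replicate 2 (edgeR adjusted p = 0.0549). DDB2 (log2 0.11, 95% interval −0.11 to 0.33, edgeR adjusted p = 0.41) and ERCC1 (log2 −0.09, 95% interval −0.32 to 0.13, edgeR adjusted p = 0.507) were not called. Set side by side, XPC, ERCC2 and ERCC4 were higher in libraries labelled OVCAR3-DDP and lower in shNC than in the same parental libraries, ERCC5 was the other way round, and ERCC6 and XPA were lower in both.

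Set against the libraries labelled OVCAR3-DDP themselves, shNC had 3 genes higher and 7 lower, all 10 called, with 69.7% of all genes called, 32.9% higher and 36.8% lower. ERCC5 had 9.44 and 10.04 CPM in shNC and 2.63 and 2.50 CPM in libraries labelled OVCAR3-DDP, with no overlap (log2 1.92, SE 0.23, edgeR adjusted p = 6.45e-08). DDB2 (log2 0.83, edgeR adjusted p = 2.71e-07) and ERCC6 (log2 0.63, edgeR adjusted p = 0.000221) were also higher in shNC. ERCC4 (log2 −1.75, edgeR adjusted p = 1.19e-10), ERCC2 (log2 −1.48, edgeR adjusted p = 4.74e-12) and XPC (log2 −1.22, edgeR adjusted p = 2.09e-09) were lower by the most. ERCC3 (−0.72), XPA (−0.68), ERCC1 (−0.46) and DDB1 (−0.23) were lower too on the log2 scale, and the DDB1 call was lost in 9 of 13 settings, among them leaving out any 1 library compared. The hairpin libraries differ from all others in depth, in reads with more than 1 alignment and in mitochondrial share, as given above, and the part of these in either comparison cannot be told apart from that of the hairpin.

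**Figure D4:**
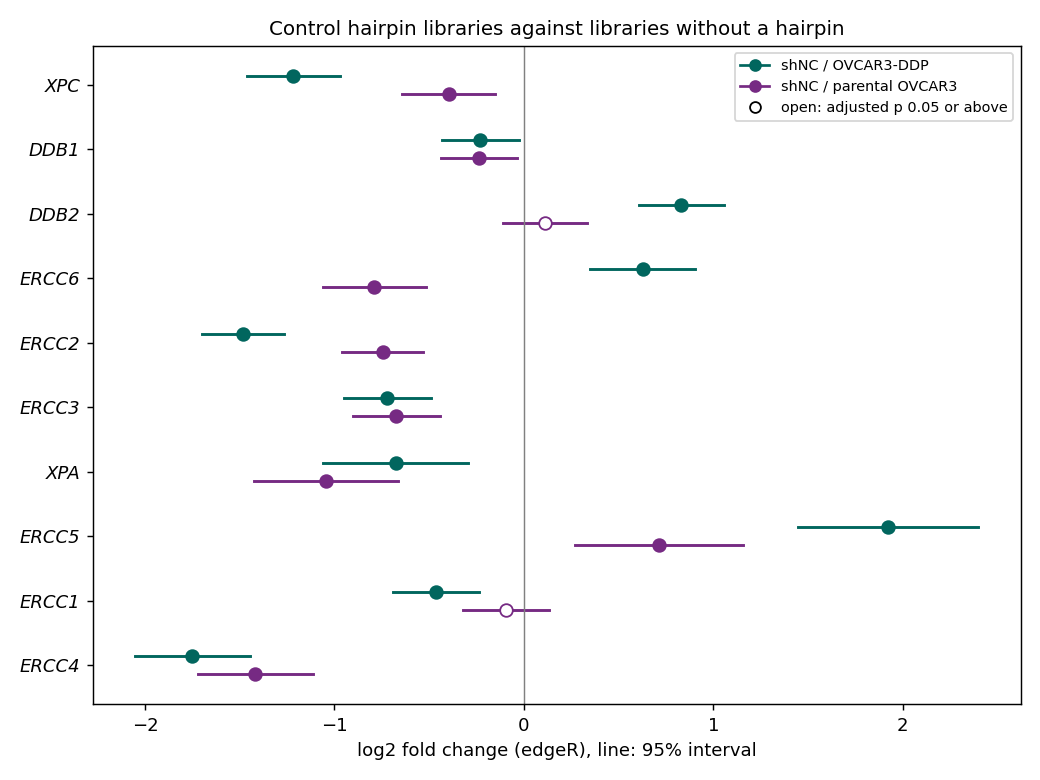
Log2 fold change of each gene (horizontal axis, points) with its 95% interval (lines) in shNC over the libraries labelled OVCAR3-DDP (green) and in shNC over parental OVCAR3 (purple); open points have an edgeR adjusted p of 0.05 or above. ERCC4 lies at −1.75 and −1.42, and ERCC5 at 1.92 and 0.71.

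The parental lines differed in most of these genes before any selection. Parental OVCAR3 had 4 genes higher and 4 lower than parental A2780, with 66% of all genes called, 32.3% higher and 33.7% lower. ERCC6 had 44.3 and 58.7 CPM in parental OVCAR3, against 13.5 and 13.7 CPM in parental A2780 (log2 1.90, SE 0.13, edgeR adjusted p = 3.85e-08). ERCC5 (log2 1.58, edgeR adjusted p = 0.000118), DDB2 (log2 1.27, edgeR adjusted p = 3.68e-08) and DDB1 (log2 0.83, edgeR adjusted p = 2.05e-06) were also higher in OVCAR3. ERCC2 had 77.6 and 75.9 CPM in parental OVCAR3, against 228 and 227 CPM in parental A2780 (log2 −1.59, SE 0.09, edgeR adjusted p = 2.4e-09), and ERCC1 had 55.6 and 59.3 CPM in parental OVCAR3, against 145 and 162 CPM in parental A2780 (log2 −1.45, SE 0.10, edgeR adjusted p = 2.25e-08). Both lay far lower in OVCAR3 than in A2780. ERCC3 (log2 −0.31, edgeR adjusted p = 0.00948) and ERCC4 (log2 −0.29, edgeR adjusted p = 0.025) were lower by less, and the ERCC4 call was lost in 7 of 14 settings, among them without the first parental OVCAR3 or either parental A2780 library. The ERCC3 call was lost without the first parental OVCAR3 or the second parental A2780 library (edgeR adjusted p up to 0.0971). XPC (log2 −0.08, 95% interval −0.30 to 0.14, edgeR adjusted p = 0.499) and XPA (log2 0.39, 95% interval 0.03 to 0.75, edgeR adjusted p = 0.0544) were not called, though 7 of 14 settings called XPA higher.

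Ordered by mean level over the 7 groups, ERCC1 was highest in both A2780 groups and ERCC2 in parental A2780. ERCC1 ran from 53.3 CPM in sh1 to 214 CPM in A2780-DDP, with A2780-DDP, parental A2780 and the OVCAR3-DDP libraries each above the next in order (edgeR adjusted p under 0.05), while no step between sh2, parental OVCAR3, shNC and sh1 was called. ERCC2 ran from 40.8 CPM in sh2 to 227 CPM in parental A2780, and the libraries labelled OVCAR3-DDP and A2780-DDP were the neighbours above parental OVCAR3 that did not differ from each other. DDB2 was highest in shNC, with sh2, parental OVCAR3 and sh1 after it and no call between neighbours, followed by the OVCAR3-DDP libraries and then A2780. ERCC6 was highest in parental OVCAR3, at 51.5 CPM, and lowest in A2780-DDP, at 12.9 CPM. XPC was highest in libraries labelled OVCAR3-DDP, at 83.7 CPM, and none of the 5 later steps in its order was called. For XPC, ERCC2, ERCC3 and ERCC4 the mean levels of all hairpin groups stood below those of all groups without a hairpin, and for ERCC5 they stood above. The share of all genes that separate in this way was not computed, and the hairpin libraries also differ from the others in depth and in mitochondrial share. Per kilobase of merged exon, group means of DDB1 ran from 19.7 to 35.8 CPM per kilobase and those of ERCC6 from 0.773 to 3.08 CPM per kilobase.

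Across the 14 libraries, log2 CPM of DDB2 ran with that of ERCC5 (Pearson r = 0.94) and of ERCC6 (r = 0.92), and ERCC2 with ERCC3 (r = 0.89). Negative values were as large, for ERCC3 with ERCC5 (r = −0.94), DDB2 with ERCC1 (r = −0.92), ERCC2 with ERCC5 (r = −0.92) and DDB2 with ERCC2 (r = −0.91). These values describe 7 groups of 2 and carry no test, since libraries of a group share their cells. Among 11413 protein-coding genes with a mean of at least 5 CPM, the pattern most like that of DDB2 was TMEM120B (r = 0.995, n = 14), that of ERCC1 was MTAP (r = 0.99), that of ERCC2 was PPP1R3B (r = 0.99) and that of XPC was BRD2 (r = 0.97). ERCC4 was most like RNF135 (r = 0.95) and XPA most like TRMT10C (r = 0.94).

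The other genes of the pathway were taken from 5 lists that hold 47 genes: partners in damage recognition, TFIIH subunits, transcription-coupled repair, incision, and gap filling and ligation. In the libraries labelled OVCAR3-DDP 13 of the 47 were higher and 19 lower than in parental OVCAR3, which is 68.09% of the list against 68.5% of all genes. The ubiquitin ligase scaffold CUL4A, which works with DDB1 and DDB2, fell (log2 −1.99, edgeR adjusted p = 3.21e-10), as did the TFIIH kinase CDK7 (log2 −1.35, edgeR adjusted p = 7.02e-08). Of the RPA subunits that coat the opened strand, RPA2 rose (log2 1.52, edgeR adjusted p = 1.62e-08) and RPA1 fell (log2 −1.28, edgeR adjusted p = 4.87e-08). XAB2, a partner of XPA in transcription-coupled repair, rose (log2 1.13, edgeR adjusted p = 3.27e-07).

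In shNC against the same parental OVCAR3 libraries 4 of the 47 were higher and 23 lower, or 57.45% against 51.5% of all genes. RPA2 was lower there (log2 −0.69, edgeR adjusted p = 5.75e-05), the opposite of its direction in libraries labelled OVCAR3-DDP, and CDK7 was not called (log2 0.26, edgeR adjusted p = 0.0701). CUL4A (log2 −0.63, edgeR adjusted p = 6.18e-06), RPA1 (log2 −0.41, edgeR adjusted p = 0.00175) and MUS81 (log2 −0.53, edgeR adjusted p = 0.000211), a structure-selective nuclease, were lower and XAB2 (log2 1.09, edgeR adjusted p = 1.15e-07) higher, the directions seen in libraries labelled OVCAR3-DDP.

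In A2780-DDP 11 of the 47 were higher and 6 lower, or 36.17% against 35.3% of all genes. CDK7 rose there (log2 0.84, edgeR adjusted p = 1.89e-05), as did the sliding clamp PCNA (log2 0.70, edgeR adjusted p = 0.000477), and MUS81 fell (log2 −0.81, edgeR adjusted p = 1.42e-05). MUS81 was also lower in the first OVCAR3 comparison (log2 −0.95, edgeR adjusted p = 8.35e-07). With sh1 2 of 46 tested were called, 1 in each direction (4.35% against 3.81% of all genes). With sh2 9 were higher and 1 lower (21.74% against 14.3% of all genes). TFIIH accounted for 5 of the 9, out of 7 subunits tested, with a median log2 of 0.48 against 0.00 over all genes, and the helicases ERCC2 and ERCC3 were not among the called. This count of TFIIH subunits was not repeated in other settings or without single libraries. Among the 5, GTF2H3 was near the threshold (log2 0.55, edgeR adjusted p = 0.0419). With sh1 1 of these 7 subunits was higher, with a median log2 of 0.18, and in sh2 against sh1 their median was 0.13. In that direct comparison of the hairpins 0 of the 7 were called by edgeR, DESeq2 or limma-voom, with 2 at an unadjusted p under 0.05. Of all 46 partner genes edgeR and limma-voom called 0 there and DESeq2 1, with 8 at an unadjusted p under 0.05 in edgeR, all higher in sh2. The share of all genes at that unadjusted threshold was not computed, so these counts have no background to be read against. MNAT1 (log2 0.69, edgeR adjusted p = 0.00827) and CDK7 (log2 0.48, edgeR adjusted p = 0.0191), both of the TFIIH kinase module, rose with sh2, and so did RPA2 (log2 0.75, edgeR adjusted p = 0.0025). With sh1 MNAT1 was higher as well (log2 0.58, edgeR adjusted p = 0.0482).

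**Figure D5:**
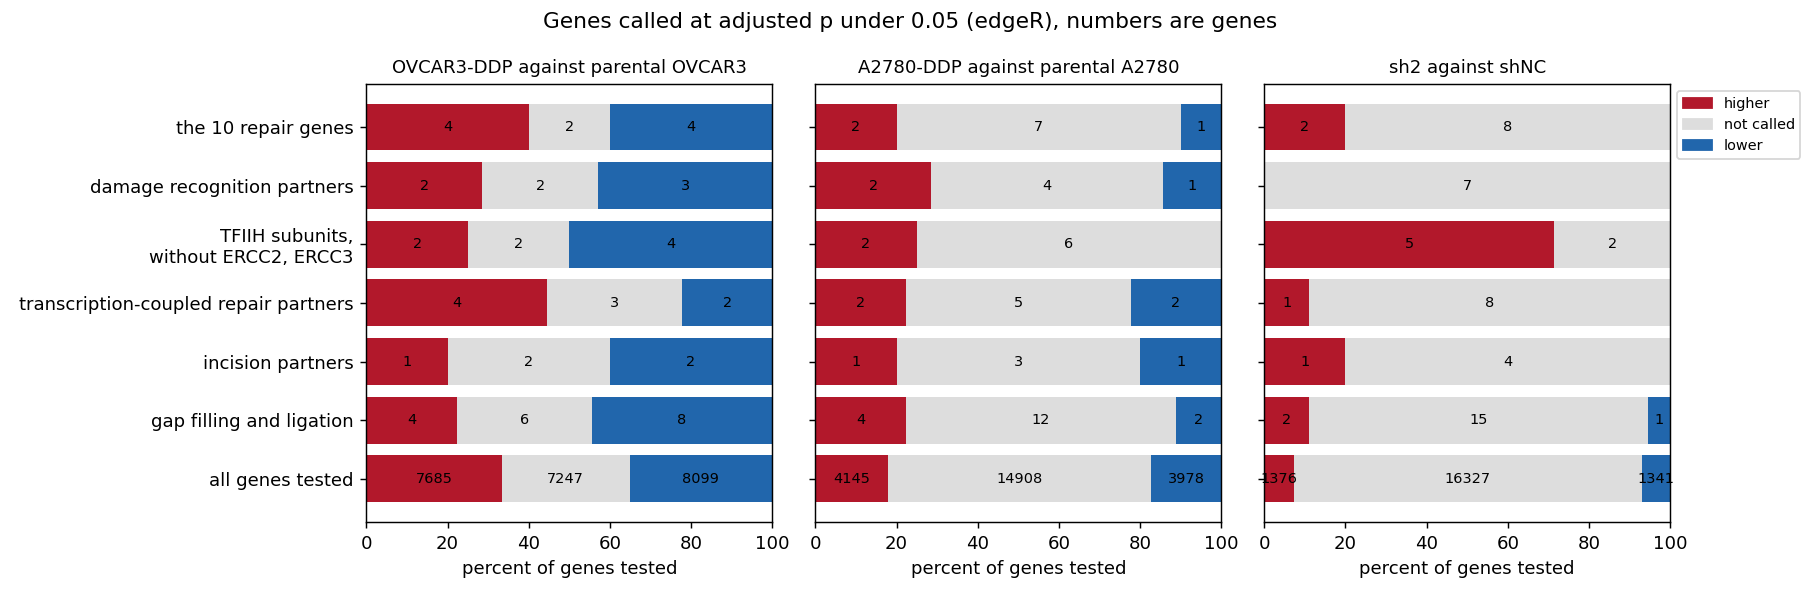
Share of the genes tested (horizontal axis, percent) that were higher (red), not called (grey) or lower (blue) at an edgeR adjusted p under 0.05 in 3 comparisons, for the 10 repair genes, 5 partner lists and all genes; numbers in the bars are genes. With sh2, 5 of 7 TFIIH subunits are higher, and in both DDP comparisons the repair lists lie near the shares of all genes.

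Reads of other genes could enter some of these counts. Genes on the opposite strand overlap 30.4% of the exon length of XPC, 28.6% of that of ERCC1 (POLR1G), 8.30% of that of ERCC2 (KLC3) and 3.74% of that of DDB1 (TKFC). DDB2, ERCC6, ERCC3 and XPA overlap no gene in GENCODE 29. XPC-AS1, which overlaps XPC, had 26.8 and 28.1 CPM in libraries labelled OVCAR3-DDP and 16.8 and 15.3 CPM in parental OVCAR3, the same direction as XPC. POLR1G had 29.8 and 30.2 CPM in libraries labelled OVCAR3-DDP and 32.3 and 40.1 CPM in parental OVCAR3, lower where ERCC1 was higher. In A2780 the directions matched, as POLR1G had 43.9 and 45.7 CPM in A2780-DDP and 28.7 and 29.8 CPM in parental A2780. KLC3 had 41.6 and 43.9 CPM in libraries labelled OVCAR3-DDP and 15.1 and 16.8 CPM in parental OVCAR3, the same direction as ERCC2. It had 24.03 and 23.2 CPM in A2780-DDP and 40.5 and 41.1 CPM in parental A2780, again the direction of ERCC2. In shNC KLC3 had 26.9 and 26.5 CPM, above parental OVCAR3, whereas ERCC2 was lower there (log2 −0.74, edgeR adjusted p = 1.73e-06). XPC-AS1 had 10.6 and 9.30 CPM in shNC, below parental OVCAR3, the same direction as XPC. TKFC had 62.00 and 65.9 CPM in libraries labelled OVCAR3-DDP and 96.9 and 90.6 CPM in parental OVCAR3, where DDB1 was not called. It had 50.7 and 47.1 CPM in A2780-DDP and 39.4 and 43.3 CPM in parental A2780, the same direction as DDB1. Reads on no gene were at least 48.7% of all reads in every library, and the part of overlapping genes in the results of these 4 and of ERCC4 was not tested.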

How the data were processed

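Gene counts were deposited by the authors, 1 file of HTSeq counts per library with 62757 genes and 5 summary lines. Tools in the submitters' processing notes are STAR 2.7.8a, HTSeq 2.0.3, SAMtools and FastQC 0.11.9, with the GRCh38.p13 build. Trizol was used to extract total RNA, per the labels. For the annotation release and strand setting, the sources used here give nothing. Nothing was realigned, and the summary lines were left out of library totals.

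The main test was the quasi-likelihood F-test of edgeR on TMM-scaled counts after filterByExpr (minimum count 10), with Benjamini-Hochberg adjustment over all genes and calls under 0.05. The 8 parental and DDP libraries formed 1 fit (23031 genes), the 6 hairpin libraries another (19044), and all 14 libraries the last (24193) for shNC against groups without a hairpin and for the order of levels. Each fit has its own scaling factors, so fitted folds can differ slightly from ratios of the printed CPM. SE is the log2 fold change divided by the root of F. Named genes were the 10 members, ADAR and up to 3 risen and 3 fallen genes of each list; a gene and a list tied to it are not reported here. Members, lists and tests were chosen with earlier results of these data known. Alternatives were DESeq2 size factors, upper-quartile scaling, other filters, DESeq2, limma-voom, other sets of libraries, leaving out each library and a replicate block; library totals alone and a crossed block were added after seeing the data. The procedure was tested on simulated counts. Replicates differed by more than sampling noise (chi-square per gene 3.88 to 31.5). Coordinates are GENCODE 29, sequences RefSeq GRCh38.p14, which held all 10 genes. Software was R 4.3.3, edgeR 4.0.16, limma 3.58.1, DESeq2 1.42.0, Python 3.11.15, numpy 2.4.6, pandas 2.3.3 and matplotlib 3.10.9.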

Additional observations from a re-analysis of the deposited data

Results flagged for a closer look

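For 6 of the 10 genes the change in the libraries labelled OVCAR3-DDP differed from that in A2780-DDP by a test of the difference itself, a contrast of the 2 log2 fold changes, where 53.8% of all genes also differed. ERCC2 differed by log2 1.58 (edgeR adjusted p = 1.38e-07), being 0.66 in libraries labelled OVCAR3-DDP and −0.92 in A2780-DDP. In shNC, the resistant OVCAR3 libraries with a control hairpin, ERCC2 was lower than in parental OVCAR3 (log2 −0.74, edgeR adjusted p = 1.73e-06), the same direction as in A2780-DDP. XPC differed by 0.49 (edgeR adjusted p = 0.0115) and ERCC4 by 0.45 (edgeR adjusted p = 0.0191), and both of these were also lower in shNC than in parental OVCAR3 (log2 −0.40 for XPC and −1.42 for ERCC4). ERCC6 differed by −1.40 (edgeR adjusted p = 3.36e-05), DDB2 by −0.91 (edgeR adjusted p = 4.05e-05) and DDB1 by −0.41 (edgeR adjusted p = 0.0125). In shNC against parental OVCAR3, ERCC6 (log2 −0.79) and DDB1 (log2 −0.24) were lower and DDB2 (log2 0.11) was not called. The libraries labelled OVCAR3-DDP held 494 to 532 CPM of ovarian and epithelial markers in sum, against 3767 to 4207 CPM in parental OVCAR3, although WT1 was higher there. The part of this in the differences was not tested.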

How the results depend on the processing

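No member's value that was called with or without an alternative changed sign under it. Of 48 calls of the 10 genes over the 10 comparisons, 30 kept their side of the threshold in every setting run. In A2780-DDP against parental A2780, 5 of the 9 members tested were called among genes with a mean of at least 5 CPM, against 3 of 10. In that setting 48.7% of all genes were called, against 35.3%. For sh2 against sh1, 1 gene, XPA, was called with no low-count filter, with DESeq2's Wald test, with library totals alone and with the crossed block, against 0. In that order these settings called 1.96%, 5.03%, 1.86% and 5.9% of all genes, against 1.92%. For the mean of the hairpins 1 gene was called with library totals alone, against 2, with 13.7% of all genes called, against 11.9%. The fits that follow leave 1 library in a group. The share of all genes called also changed in them, so their counts do not describe the repair genes alone. Leaving out 1 library each gave 5 to 7 calls in OVCAR3-DDP against parental OVCAR3 (8 with all), lowest without the second OVCAR3-DDP library, and 2 to 4 in A2780-DDP (3). It gave 3 to 8 for the line difference (6), 0 to 3 for sh1 (1), 0 to 1 for sh2 (2), 0 to 4 for the mean of the hairpins (2), and 0 to 1 for sh2 against sh1 (0). The 0 for sh1, sh2 and their mean came without shNC replicate 2, and the 3 and 4 without sh1 replicate 1. It gave 5 to 7 for shNC against parental OVCAR3 (8), 5 without shNC replicate 2, 9 for shNC against OVCAR3-DDP (10), and 6 to 8 for the parental lines (8).

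Groups share replicate numbers, and deviations of same-numbered libraries correlated from −0.20 to 0.38, highest for parental OVCAR3 with A2780-DDP. These values do not settle whether the numbers pair libraries, and the main fits used no replicate block. With a replicate block, 7, 3 and 6 genes were called for OVCAR3-DDP, A2780-DDP and the line difference, 8 for the parental lines, 1, 2, 1 and 0 for sh1, sh2, their mean and sh2 against sh1, and 7 and 9 for shNC against parental OVCAR3 and against OVCAR3-DDP. In the same order the block called 67.6%, 34.9%, 53% and 65.1% of all genes, then 3.62%, 13.6%, 11% and 2.09%, then 50.3% and 68.6%. With the numbers crossed, 7 genes were called for OVCAR3-DDP, 3 for A2780-DDP and 1 for sh2 against sh1, with 66%, 32.3% and 5.9% of all genes called. Library totals alone moved the median of all genes by up to 0.29 on the log2 scale, for shNC against OVCAR3-DDP, and by 0.15 for OVCAR3-DDP against parental OVCAR3, where the uncalled differences of DDB1 and ERCC3 turned positive. With 2 libraries a group, small changes of XPA and ERCC5, the members with the fewest counts, are the least well measured.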
